A study of Homo sapiens with 6 samples.

Results

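The genes KRT7, KRT8, KRT18, KRT19 and KRT20, the keratins typical of simple epithelia, and VIM, which encodes vimentin, were followed in LoVo cells, an established human colon adenocarcinoma line. They were taken by gene symbol, and all 6 stood among the 22496 symbols listed in at least 1 library. Poly-A RNA was sequenced from 3 libraries of genotype non-target, the control, and 3 of genotype SHARPIN knockout. No treatment or time course is given for either group, and the labels do not say whether the knockout cells were 1 clone or a pool, or whether replicates were separate cultures, so the spread between libraries may be technical. SHARPIN works with RBCK1 and the ligase RNF31 in the complex that builds linear ubiquitin chains. The values are FPKM, fragment numbers divided by the length of the transcript and by the sequencing yield of the library.

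Keratins and vimentin build intermediate filaments, the tough, non-polar fibres of the cytoplasm. Keratins assemble only as pairs of an acidic type I chain and a basic type II chain. KRT7 and KRT8 are type II, and KRT18, KRT19 and KRT20 are type I. KRT8 and KRT18 are the main pair of simple epithelia, KRT19 is an unusually short type I chain of ducts and gut, KRT20 marks the differentiated intestinal epithelium, and KRT7 is typical of ductal epithelia and low in colon. Vimentin, a type III protein, forms filaments alone and is the usual filament of mesenchymal cells, although many epithelial cell lines also make it.

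SHARPIN transcript stood at 11.9, 13.9 and 12.9 FPKM in the non-target libraries and at 7.55, 11.9 and 18 FPKM in those labelled knockout, in replicate order, so the groups overlapped (limma, adjusted p = 0.827). Loss of a protein need not lower its mRNA, and these levels are no check of the labels. The partner subunits RBCK1 and RNF31 did not pass either (adjusted p = 0.551 and 0.664). Depth, estimated from the smallest steps between FPKM values, was similar in the 6 libraries, at 21100000 to 22500000 fragments. Correlations of log2(FPKM + 1) across genes were 0.946 to 0.997 within a group and 0.912 to 0.94 between groups, with non-target replicates 2 and 3 the closest pair. The summed FPKM was 522919 in knockout replicate 3 and 416852 to 431264 in the other 5. The colonic epithelial genes EPCAM, CLDN4, CLDN7 and CDH1 were abundant in both groups, with means of 195 and 165, 89.5 and 101, 106 and 72.5, and 32.6 and 40.3 FPKM in non-target and knockout. Other colonic epithelial markers were far lower in knockout. Of the listed markers outside the members 5 fell (limma). On average CDH17 went from 57.3 to 5.78, GPA33 from 46.7 to 1.48, LGALS4 from 42.4 to 2.26 and CLDN3 from 36.8 to 4.17 FPKM. VIL1 went from 2.39 to 0.51 FPKM, and reached 1 FPKM only in non-target libraries, so it had to differ in order to be tested. With the members in the list 14 were tested and 50% were called, among them the members KRT19 and KRT20, against 12.2% of all genes tested. Since the members were selected on this same contrast, that share is a description and not a test. The non-target libraries thus carried the markers of the labelled cell type, and the knockout libraries carried part of them.

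The members were selected on their FPKM in the knockout and non-target libraries, with that contrast already known. Their levels and differences are therefore a description, with no test. In the fit of all genes, 2 members were among the genes called higher in knockout (KRT19 and KRT20), 1 among those called lower (VIM), and 3 were not called. Over all 13092 genes tested 12.2% were called (limma, adjusted p below 0.05), 6.26% higher and 5.93% lower. Knockout and non-target values had no overlap for the same 3 members, against 32.1% of all genes tested. With the replicate number as a block 4 members were called, KRT8 being added, against 25.3% of all genes. The median difference of the 6 members was 0.47 on the log2(FPKM + 1) scale, and that of all genes tested was 0.02.

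The promoters of KRT20 and VIM are shown because these genes had the greatest differences in each direction among the members. Each run holds the 250 bases before the gene start in RefSeq (GRCh38.p14), read 5′ to 3′ on the gene's strand. Each was found once on its chromosome in GRCh37, the build of the deposited values, at chr17:39041495-39041744 (minus strand) for KRT20 and chr10:17269990-17270239 (plus strand) for VIM. Capitals mark the motifs that were found.
KRT20: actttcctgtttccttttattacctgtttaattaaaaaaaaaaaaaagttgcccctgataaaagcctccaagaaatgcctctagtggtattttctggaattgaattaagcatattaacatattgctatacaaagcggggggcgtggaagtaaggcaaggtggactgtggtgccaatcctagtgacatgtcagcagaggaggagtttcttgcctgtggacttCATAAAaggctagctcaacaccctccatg
VIM: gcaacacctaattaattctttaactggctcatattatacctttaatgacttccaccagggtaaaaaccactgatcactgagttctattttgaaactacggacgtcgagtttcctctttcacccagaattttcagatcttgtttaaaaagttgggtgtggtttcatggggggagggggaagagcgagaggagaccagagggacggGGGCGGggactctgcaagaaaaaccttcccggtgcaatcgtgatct
Of 8 motifs searched on both strands, the KRT20 stretch held 1 match to the CDX motif TTTATG, 29 to 24 bases before the start on the opposite strand. On the gene's strand these letters read CATAAA, which differs from the TATA box TATAAA only in its first base. Whether the run acts as either was not tested. The CDX motif occurred in 9.64% of 35116 promoter stretches of the same length. The VIM stretch held 1 GC box, GGGCGG, 46 to 41 bases before the start, a motif found in 42.6% of the stretches. Neither stretch held a match to the other motifs. The TATA box, TATAAA, occurred in 10.7% of all stretches and the CACCC box of Kruppel-like factors, CCACCC, in 31.3%. The AP-1 motif TGAGTCA occurred in 4.2%, and the E2-box of ZEB and SNAI factors, CAGGTG, in 17.5%. The HNF4 motif CAAAGTNCA and the kappa-B motif GGGANTTCC occurred in 0.94% and 1.59%. GC content was 41.2% in the KRT20 stretch and 46% in the VIM stretch. A match is a run of letters, not a bound site.

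KRT8 and KRT18 were the most abundant members, and their groups overlapped. KRT8 (chromosome 12, 53290971 to 53343738, minus strand) stood at 1866, 2317 and 2409 FPKM in the non-target libraries, in replicate order, and at 2216, 3107 and 4287 FPKM in the knockout libraries. Knockout replicate 1 lay inside the non-target range, and knockout replicates 2 and 3 lay above it. KRT18, which neighbours KRT8 (chromosome 12, 53342655 to 53346690, plus strand), stood at 1586, 2326 and 2247 FPKM in non-target and at 1650, 2902 and 4257 FPKM in knockout, in the same order of replicates. Here too only knockout replicates 2 and 3 exceeded every non-target library. In each group replicate 1 had the lowest KRT8 and the lowest KRT18. The differences of log2(FPKM + 1) were 0.50 ± 0.25 (SE, n = 3 per group) for KRT8 and 0.43 ± 0.32 for KRT18. When libraries of the same replicate number were set against each other, the knockout library was higher in 3 of 3 for both genes, by 1.19, 1.34 and 1.78 times for KRT8 and by 1.04, 1.25 and 1.89 times for KRT18. Both genes were among the 40 most abundant in every library, KRT8 at ranks 8 to 28 and KRT18 at ranks 10 to 40.

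Since knockout replicate 3 had the greatest summed FPKM, the levels were also rescaled so that every library had the same sum (TPM). On that scale KRT8 stood at 4420, 5495 and 5586 in non-target and at 5214, 7452 and 8197 in knockout, and KRT18 at 3758, 5517 and 5211 and at 3883, 6961 and 8140. The groups still overlapped, and knockout replicate 3 was still the highest library for both genes. The log2 difference under this scaling was 0.41 for KRT8 and 0.34 for KRT18.

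**Figure D1:**
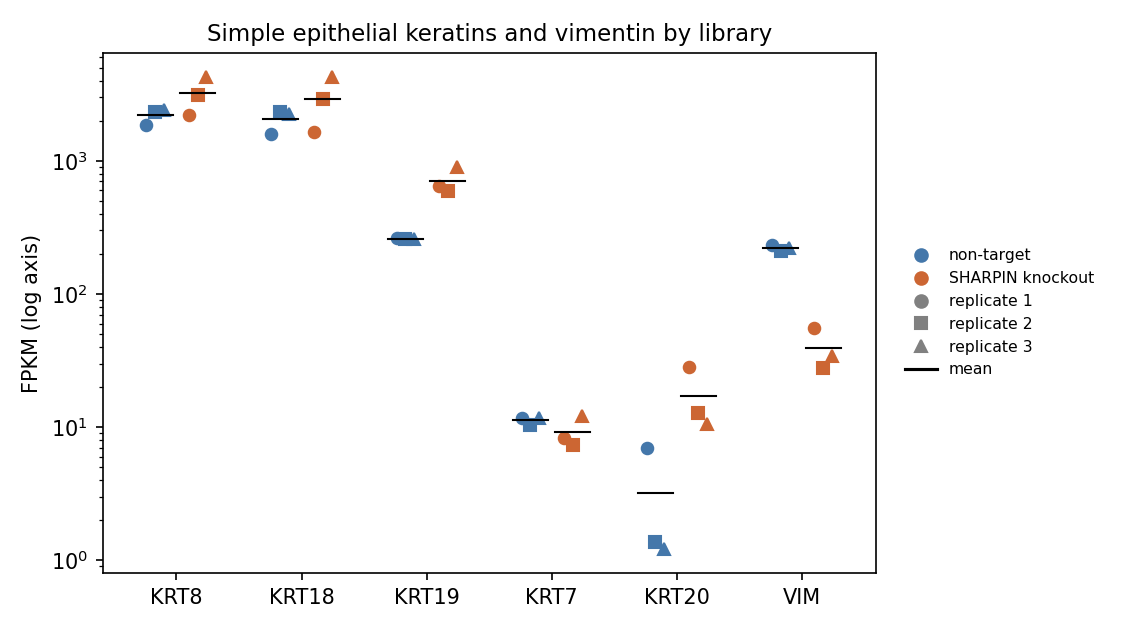
FPKM (log axis) of the 6 members in each library, with replicates as circles, squares and triangles and black lines at group means. VIM is lower and KRT19 and KRT20 are higher in every knockout library than in any non-target library, while KRT8, KRT18 and KRT7 overlap between the groups.

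KRT8 and KRT18 varied less against each other than each did between libraries. Whether this was particular to the pair was not tested. The ratio of KRT8 to KRT18 FPKM was 1.18, 0.996 and 1.07 in non-target and 1.34, 1.07 and 1.01 in knockout. It thus spanned 0.996 to 1.34 while KRT18 itself varied from 1586 to 4257 FPKM, and its groups overlapped. Among the 5 keratins followed here, other keratins left out, the ratio of type II to type I FPKM ranged from 0.833 to 1.01 over the 6 libraries. KRT8 and KRT18 made up 92.5%, 94.5% and 94.5% of the 5 keratins' FPKM in non-target and 84.9%, 90.8% and 90.3% in knockout, where every library was lower.

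KRT19 (chromosome 17, 39679869 to 39684560, minus strand) was higher in every knockout library. It stood at 263, 258 and 257 FPKM in non-target and at 651, 589 and 891 FPKM in knockout. The non-target libraries were nearly equal, with a coefficient of variation of 1.22%, against 22.5% in knockout, where replicate 3 was highest. The mean was 2.74 times higher in knockout, 710 ± 160 against 260 ± 3.17 FPKM (SD, n = 3), and the log2 difference was 1.43 ± 0.19 (SE). Of all genes tested 1.42% had a greater increase. Relative to KRT18, the other abundant type I chain, KRT19 stood at 0.166, 0.111 and 0.114 in non-target and at 0.394, 0.203 and 0.209 in knockout. Replicate 1 had the highest ratio in each group, and the groups did not overlap. The share of KRT19 in the 5 keratins' FPKM was 5.22% to 7.05% in non-target and 8.9% to 14.3% in knockout.

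KRT20 (chromosome 17, 39032141 to 39041494, minus strand) had the greatest relative increase among the members, from a low level. It stood at 7, 1.37 and 1.21 FPKM in non-target and at 28.3, 12.7 and 10.5 FPKM in knockout. The groups did not overlap, but non-target replicate 1 lay closer to knockout replicate 3 than to the other non-target libraries on the FPKM scale, and replicate 1 was the highest in both groups. The knockout mean was 5.37 times the non-target mean (17.1 ± 9.71 against 3.19 ± 3.3 FPKM), and the log2 difference was 2.26 ± 0.50 (SE). Within a replicate number the knockout library was 4.04, 9.25 and 8.65 times higher. At the estimated depth and a transcript length of 1804 bases, the lowest value stands for about 49 fragments and the highest for about 1134. KRT20 was no longer among the called genes when no filter on low values was used, when replicate 2 or 3 of non-target or replicate 2 of knockout was left out, or with non-target replicates 2 and 3 counted as 1. Even in knockout it was at most 0.621% of the 5 keratins' FPKM.

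KRT7 (chromosome 12, 52626304 to 52645970, plus strand) was low and did not separate the groups. It stood at 11.7, 10.3 and 11.8 FPKM in non-target and at 8.31, 7.3 and 12.2 FPKM in knockout. Knockout replicates 1 and 2 were below every non-target library and knockout replicate 3 was above. The log2 difference was -0.28 ± 0.20 (SE). Scaled to each library's sum, KRT7 was 24.4 to 27.7 TPM in non-target and 17.5 to 23.4 TPM in knockout, so on that scale the groups no longer overlapped. KRT7 was 0.21% to 0.313% of the 5 keratins in non-target and 0.11% to 0.182% in knockout.

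VIM (chromosome 10, 17270240 to 17279592, plus strand) was the member that was clearly lower. It stood at 234, 212 and 222 FPKM in non-target and at 55.1, 28 and 34.1 FPKM in knockout. The highest knockout library, replicate 1, was below 212 FPKM, the lowest non-target library. The mean was 5.7 times lower in knockout, 39.1 ± 14.2 against 223 ± 11.1 FPKM (SD, n = 3), a log2 difference of -2.54 ± 0.24 (SE). Of all genes tested 0.374% had a greater decrease. VIM ranked 193 to 216 by FPKM in non-target and 1036 to 2166 in knockout. VIM was 4.14% to 5.9% of the summed FPKM of the 6 members in non-target and 0.359% to 1.2% in knockout. KRT19 and VIM were at similar levels in non-target, with a ratio of 1.12 to 1.22, and the ratio was 11.8, 21 and 26.1 in knockout replicates 1, 2 and 3. In bulk RNA, fewer cells with a transcript and less of it per cell cannot be told apart.

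Markers of stromal cells, which are rich in vimentin, had a lower sum in knockout. The summed FPKM of 15 fibroblast and stromal genes was 44.1, 19.8 and 22.1 in non-target and 13.2, 7.46 and 6.98 in knockout, and 8, 3 and 3 of them against 2, 2 and 2 reached 1 FPKM. Non-target replicate 1 stood apart. There the collagen genes COL1A1 and COL1A2 were at 6.6 and 6.12 FPKM, against at most 0.29 FPKM for either in any other library. FAP was below 0.1 FPKM throughout. VIM itself was about the same in non-target replicates 2 and 3 as in replicate 1, and its log2 difference was -2.50 without non-target replicate 1. The matrix protein gene LUM stood at 5.03, 7.52 and 7.45 FPKM in non-target and 0.385, 0.199 and 0.151 FPKM in knockout. Of the 15 genes 3 were tested, and 1, LUM, was called, which passed the filter only through the non-target libraries. ACTA2 and FN1 did not pass (limma adjusted p = 0.0688 and 0.191). These tested genes held most of the sum in every library, though a smaller part of it in non-target replicate 1. POSTN went the other way, from a mean of 0.084 to 0.136 FPKM. The endothelial markers summed to at most 1.73 FPKM, with KDR at 0 in every library, and of 12 immune markers 5, among them CD3E and TYROBP, were at 0 in every library. The immune list summed to 64.8 to 91.5 FPKM in non-target and 31.1 to 38.5 FPKM in knockout, most of it from LYZ, a Paneth cell product too, and CD68. These went opposite ways. LYZ fell from a mean of 53.8 to 2.1 FPKM (limma adjusted p = 2.61e-05). CD68 was higher in every knockout library, with means of 22 and 31.6 FPKM, but did not pass (limma adjusted p = 0.085). The part of stromal transcripts in the VIM result was not tested beyond these values.

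**Figure D2:**
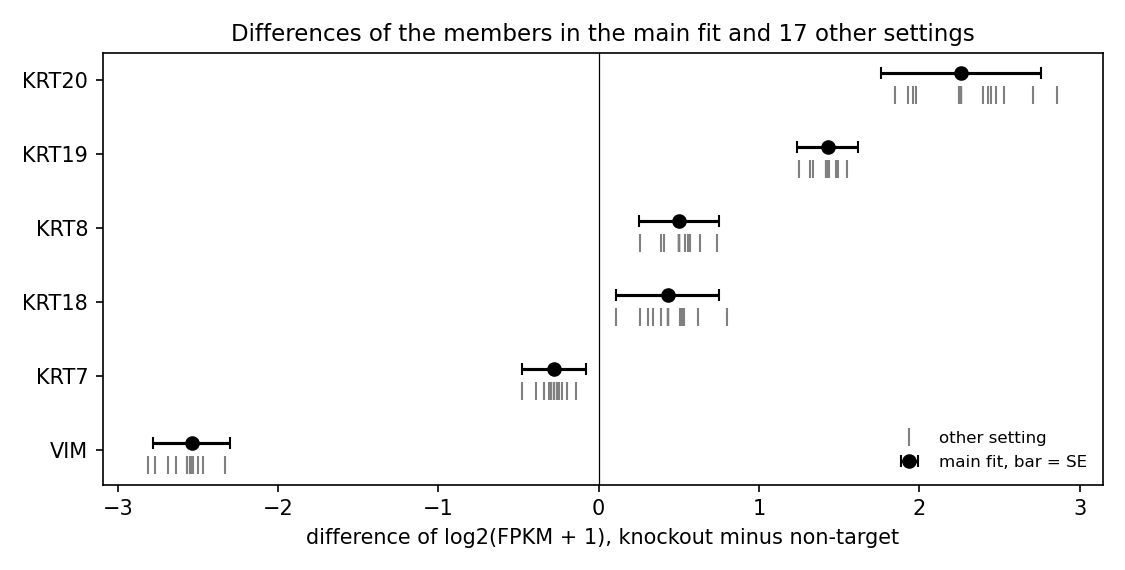
Difference of log2(FPKM + 1), knockout minus non-target, for each member: black points are the main fit with SE bars, and grey ticks are 17 other settings. Every setting kept the side of 0 for each member, and those that change only the filter, trend or block repeat the main value. When single libraries were left out, VIM lay between -2.81 and -2.33 and KRT19 between 1.25 and 1.55.

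Reads of several members can be shared with other genes. Every run of 50 bases in the main transcript of each member was looked up, on both strands, in the GENCODE transcripts of all other genes. Such runs recurred for 54.3% of KRT18, 39.2% of KRT8, 37.8% of VIM, 11.7% of KRT7, 1.79% of KRT19 and 0% of KRT20. For runs of 100 bases the shares were 18.5% for KRT18, 7.12% for KRT8, 29% for VIM, 8.32% for KRT7 and 0% for KRT19 and KRT20. KRT8 and KRT18 have 51 and 67 annotated pseudogenes named after them, of which 1 each, KRT8P41 and KRT18P55, was listed, at no more than 0.046 and 0.19 FPKM. An alternative KRT8 transcript also shares 375 exonic bases with KRT18 on the opposite strand. For VIM the shared runs lay in antisense genes. For KRT7 those of 50 bases lay in 9 genes, among them its antisense gene KRT7-AS, PRPH and KRT6A. The antisense gene VIM-AS1 shares 641 exonic bases with VIM, and its FPKM was 70.6, 75.3 and 73.8 in non-target and 17.4, 10.4 and 10.7 in knockout (limma log2 difference -2.46, adjusted p = 1.04e-04). The ratio of VIM-AS1 to VIM was 0.302 to 0.373 in all 6 libraries, with a mean of 0.33 in non-target and 0.334 in knockout. KRT7-AS, which shares 221 exonic bases with KRT7, stood at 0.504 to 0.599 of KRT7. The sources used here do not say whether the counting used strand, so reads of each gene and its antisense partner cannot be told apart. The levels of KRT8, KRT18, VIM and KRT7 carry this uncertainty.

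**Figure D3:**
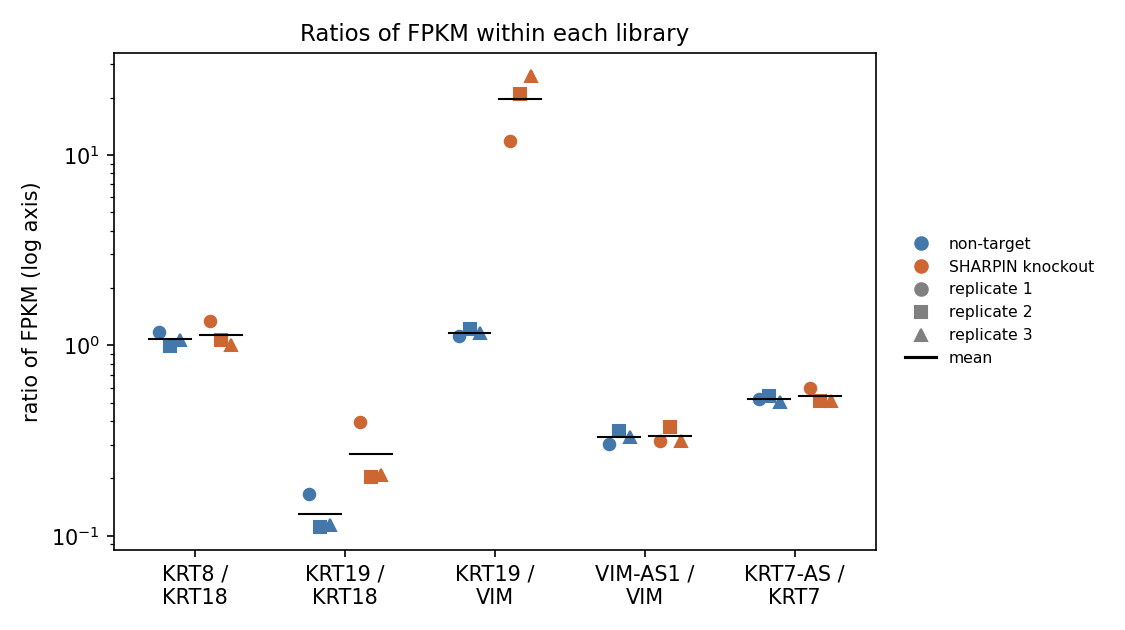
Ratios of FPKM within each library (log axis), which do not move with the library's scaling; symbols are replicates and lines are group means. KRT19 over VIM separates the groups most, at 1.12 to 1.22 against 11.8 to 26.1, while VIM-AS1 over VIM stays between 0.302 and 0.373.

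Other filament genes were measured in the same fit of all genes, with p-values adjusted over all 13092. Of 18 listed, 8 could be tested, and 1 rose, 2 fell and 5 did not pass, a share of 37.5% called against 12.2% of all genes (2 and 3 with a replicate block). The genes that fell encode filament proteins that are known to co-assemble with vimentin. Nestin (NES) stood at 3.03, 2.93 and 2.76 FPKM in non-target and at 0.367, 0.253 and 0.37 FPKM in knockout (log2 difference -1.56, limma adjusted p = 1.46e-04). Synemin (SYNM) stood at 1.15, 1.3 and 1.48 FPKM in non-target and at 0.099, 0.14 and 0.094 FPKM in knockout (-1.05, adjusted p = 7.41e-04). Both were low and passed the filter only through the non-target libraries, so they had to differ in order to be tested. Lamin A/C (LMNA), the nuclear lamina filament, rose from 184 ± 33.9 to 356 ± 82.2 FPKM (SD, n = 3; adjusted p = 0.0215), but was not called when replicate 1 or 3 of non-target or replicate 2 or 3 of knockout was left out, nor with no filter (adjusted p up to 0.0788). The type III and IV genes DES, GFAP and NEFH were at no more than 0.14 FPKM in any library. PRPH, a type III gene that was tested, stood at 2.68, 1.49 and 1.09 FPKM in non-target and 2.23, 1.12 and 1.66 FPKM in knockout. Its groups overlapped (limma log2 difference -0.02, adjusted p = 0.964).

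Most genes of the anchors that tie filaments to junctions did not pass. Of 16 plakin, desmosome and hemidesmosome genes, 14 were tested, of which 1 rose, 2 fell and 11 did not pass, with a median log2 difference of -0.15. The share called was 21.4%, against 12.2% of all genes, and a replicate block gave 3 that rose and 6 that fell, where 25.3% of all genes were called. Envoplakin (EVPL), a cytolinker of the cell border, fell, from 11.9, 18.2 and 18.1 FPKM to 4.87, 6.39 and 6.55 FPKM (-1.28 ± 0.21 SE, limma adjusted p = 0.0031). Its partner periplakin (PPL) rose, from 4.51, 3.04 and 2.69 FPKM to 11.4, 10 and 7.38 FPKM (1.27 ± 0.22 SE, adjusted p = 0.00466). The hemidesmosomal integrin ITGB4 fell, from 250 ± 9.22 to 145 ± 18.9 FPKM (adjusted p = 0.0124), but not past the threshold without non-target replicate 2 or 3, or with these counted as 1 (adjusted p up to 0.0811). Desmoplakin (DSP), which anchors keratins at desmosomes, stood at 49.8, 37.6 and 38.9 FPKM in non-target and 58.9, 45.6 and 27.1 FPKM in knockout (log2 difference 0.00), and plectin (PLEC) at 28.1, 45.7 and 46.4 against 41.2, 78.1 and 63.2 FPKM (0.58, adjusted p = 0.219). Both were singled out after their values were seen.

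Of 23 proteins that bind, fold or cleave keratins and vimentin, 22 were tested, and 1 rose, 1 fell and 20 did not pass. The share called was 9.09%, against 12.2% of all genes. With a replicate block 3 rose and 1 fell, where 25.3% of all genes were called. Stratifin (SFN), a 14-3-3 protein of epithelia, rose from 65.8, 93.2 and 89.5 FPKM to 249, 264 and 402 FPKM (log2 difference 1.85 ± 0.23 SE, limma adjusted p = 7.15e-04). The initiator caspase CASP8 fell from 10.4 ± 0.103 to 5.12 ± 1.56 FPKM (SD, n = 3; adjusted p = 0.02), and lost the call without any 1 non-target library or with non-target replicates 2 and 3 counted as 1 (up to 0.0677). Of 22 kinases and phosphatases of keratins and vimentin, limma called 0, with 6 at an unadjusted p below 0.05, all higher in knockout. Over all genes 3338 of 13092 had an unadjusted p below 0.05, a similar share. Without the intensity trend limma again called 0 of the 22, with 6 unadjusted, and with a replicate block it called 6, all higher, where 25.3% of all genes were called.

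Transcription factors linked to keratin and vimentin genes were mostly lower where they passed. Of 38 listed, 30 were tested, and 1 rose, 11 fell and 18 did not pass, with a median log2 difference of -0.50. The share called was 40%, against 12.2% of all genes. With a replicate block 2 rose and 16 fell, where 25.3% of all genes were called. Of the 11 that fell 3, CDX1, GRHL2 and OVOL1, passed the filter only through the non-target libraries, so they had to differ in order to be tested. The nuclear receptors HNF4G and HNF4A, which drive gut epithelial genes, fell. HNF4G stood at 14, 12.7 and 13 FPKM in non-target and 1.09, 0.912 and 0.603 FPKM in knockout (-2.94, limma adjusted p = 2.61e-05). HNF4A went from 22 ± 1.48 to 3.84 ± 0.849 FPKM (SD, n = 3; adjusted p = 7.75e-05). KLF4, a factor of differentiating epithelium, rose from 24.3 ± 1.49 to 71.7 ± 2.47 FPKM (adjusted p = 1.93e-04). In these 3 the groups did not overlap, and each passed in every setting run.

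Other factors were singled out after their values were seen. CDX2, an intestinal factor known to activate KRT20, stood at 22.5, 17.9 and 16 FPKM in non-target and 18.6, 21.2 and 24.6 FPKM in knockout, so the groups overlapped (limma log2 difference 0.19, adjusted p = 0.587). ZEB1, a mesenchymal factor, fell from 3.3, 3.21 and 3.8 FPKM to 2.32, 1.31 and 0.743 FPKM (-0.90, adjusted p = 0.0344). It lost the call in 9 of the 17 other settings, among them without each non-target library, without knockout replicate 2 or 3 and with TPM scaling (adjusted p up to 0.112). SNAI1 stood at 4.03, 4.62 and 3.59 FPKM in non-target and 6.85, 5.02 and 6.08 FPKM in knockout (0.46, adjusted p = 0.146). The related factors ZEB2, TWIST1 and TWIST2 were at no more than 0.276 FPKM in any library and were not tested.

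**Figure D4:**
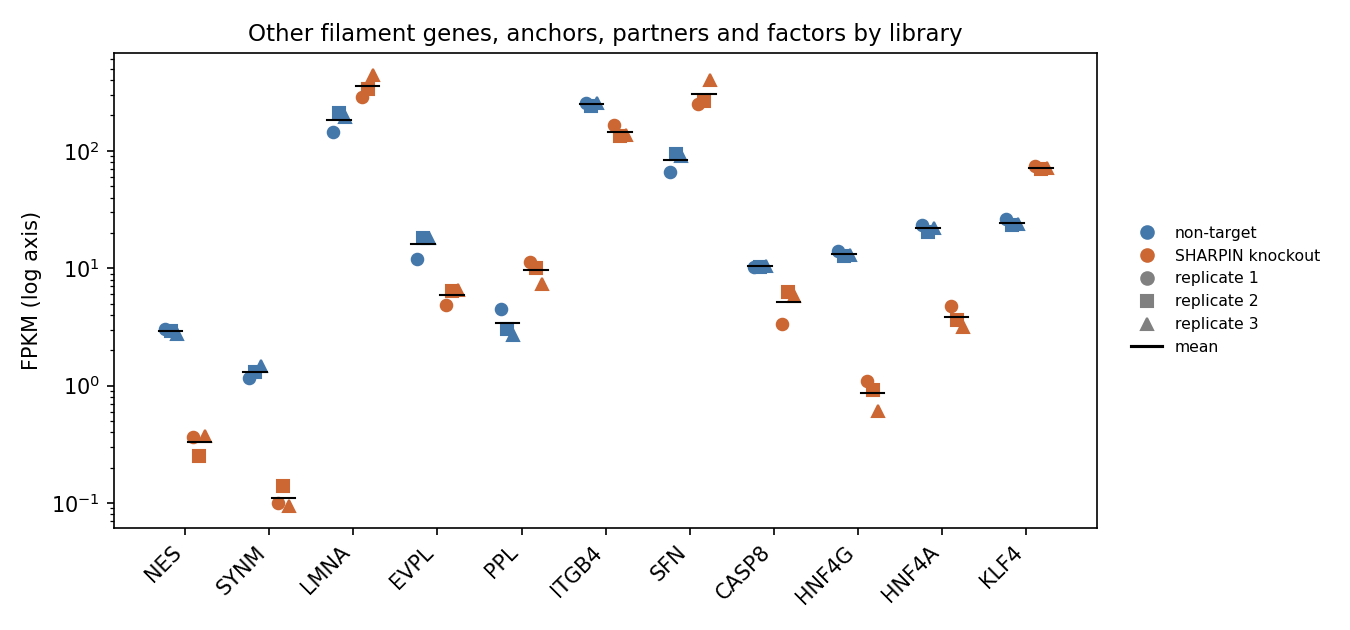
FPKM (log axis) in each library for 11 genes of intermediate filaments, their anchors and partners and the factors linked to them; symbols are replicates and lines are group means. NES, SYNM, EVPL, ITGB4, CASP8, HNF4G and HNF4A are lower and LMNA, PPL, SFN and KLF4 are higher in every knockout library than in any non-target library.

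Keratins of other epithelia give the setting of these values. Of 16 stratified and basal keratins, 9 were tested and all 9 rose (limma), led by KRT4, KRT6A and KRT5 at log2 differences of 2.84 to 3.20. KRT17 of the same list, too low to be tested, went the other way, at 2.38, 0.841 and 0.682 FPKM in non-target and 0.345, 0.089 and 0.32 FPKM in knockout. Of 17 hair keratins, 10 were tested, 7 rose, 0 fell and 3 did not pass, or 10 that rose with a replicate block. The largest differences were those of KRT37, KRT34 and KRT38, at 4.14, 4.01 and 3.70. Over all genes tested 12.2% were called, 6.26% higher, and 25.3% were called with a replicate block. In these lists KRT3, KRT14 and KRT39 passed the filter only through the knockout libraries, so they had to differ in order to be tested. A difference between these sets and the simple keratins was not tested. In FPKM, KRT4 reached 306 ± 29.8 (SD, n = 3) and KRT34 252 ± 20.6 in knockout, below the 710 ± 160 of KRT19 and above the 17.1 ± 9.71 of KRT20.

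The genes whose profile over the 6 libraries lay nearest to each member were sought among 8541 genes of at least 5 FPKM on average. The members themselves were left out of this search, which used the root mean square difference of mean-centred log2(FPKM + 1). For KRT8 these were DDX49 and EMG1, at 0.021 and 0.039, and for KRT18 EXOSC4 and LRWD1, at 0.051 and 0.069. EMG1 ran from 49.9 FPKM in non-target replicate 1 to 122 FPKM in knockout replicate 3, the same lowest and highest libraries as KRT8. For KRT7 they were PFDN5 and RPLP1, at 0.025 and 0.065, and for KRT19 ISCA2 and ELOB, at 0.081 and 0.126. For KRT20 the nearest were TNFRSF19 and TGFB2-OT1, at 0.212 and 0.244. These distances are not scaled to a gene's own spread, so they cannot be ranked between members. The genes were picked for their likeness to a member, so a shared order of libraries is no separate finding. TNFRSF19 stood at 8.86, 2.13 and 1.88 FPKM in non-target and 25.6, 13.2 and 10.1 FPKM in knockout, with replicate 1 highest in both groups as for KRT20. VIM lay nearest to the tetraspanin TSPAN8, at 0.094, and to VIM-AS1, at 0.116. TSPAN8 stood at 514, 488 and 510 FPKM in non-target and 123, 68.6 and 92.5 FPKM in knockout.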

How the data were processed

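Per the series' design text and the submitters' processing notes, reads were trimmed and filtered and then aligned to hg19, with its UCSC genes, by TopHat2 2.1.1, and the authors used STAR 2.7.10b to obtain FPKM. Per the labels' protocols the libraries were poly-A selected and marked with dUTP. Use of strand and the handling of shared reads are not given in the sources used here. Symbols missing from a library's list were set to 0. The deposited FPKM are not counts, and depth was only estimated, from steps in low values of genes with 1 annotated transcript (74 to 103 of 548 to 662 low values lay on the best step), so no count test was run.

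The fit was limma 3.58.1 in R 4.3.3 on log2(FPKM + 1), with intensity trend and robust empirical Bayes, two-sided and adjusted by Benjamini-Hochberg (threshold 0.05), for the 13092 genes that reached 1 FPKM in 3 or more of 6 libraries. It was tested on simulated data. Differences on this scale understate the change of low genes. Other settings were a pseudocount of 0.1 or 0.5, dropping the filter or requiring a mean of 5 FPKM, scaling to TPM, by median ratio or by quantiles, limma with no trend, the replicate number as a block, and each library left out in turn with the genes tested kept. The members and lists were chosen with earlier results of these data known. Named genes were, per list, up to 4 called genes of largest difference (3 for other keratins), or else the smallest p. Some genes that meet this rule are not reported here. Deviations from the group means correlated at 0.547, 0.309 and 0.331 between libraries numbered 1, 2 and 3. The labels do not tie these numbers to a shared day. The main fit therefore took the libraries as unpaired, and the block was run only as another setting. Only number 1 stands apart: non-target replicate 2 with knockout replicate 3, and 3 with 2, correlated at 0.32 and 0.321, so the values do not tell numbers 2 and 3 apart.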

Additional observations from a re-analysis of the deposited data

How the results depend on the processing

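Every member kept the direction of its difference in all 17 other settings. Changing only the filter, the trend or the block cannot alter this difference, so those settings repeat the main value. Leaving out a single library cannot move it by more than the spread between replicates, so staying within that spread says nothing there. In the remaining settings no member moved by more than this spread. Leaving out single libraries gave log2 differences of -2.81 to -2.33 for VIM, 1.25 to 1.55 for KRT19, 1.85 to 2.86 for KRT20, 0.26 to 0.74 for KRT8, 0.11 to 0.8 for KRT18 and -0.48 to -0.14 for KRT7. The difference in the KRT8 to KRT18 ratio, which is small, ran from -0.0425 to 0.125, and those in the shares of VIM and KRT19 from -4.45 to -3.56 and from 3.32 to 6.02 percentage points. Of all genes, 1597 were called, against 865 with a mean of at least 5 FPKM, 3309 with a replicate block, 945 with non-target replicates 2 and 3 counted as 1 (a setting chosen after seeing the data), 958 without non-target replicate 2 and 911 without non-target replicate 3, over a range of 911 to 1970 when single libraries were left out. The count of 865 came from 8547 genes tested. Leaving out non-target replicate 1 gave 1369, and leaving out knockout replicate 1, 2 or 3 gave 1970, 1128 and 1235. The causes of the lower counts and of the higher count were not tested. Of 96 related genes 20 were called, 14 to 26 without single libraries, 42 with a replicate block, and 32 without both replicate 1 libraries, also a setting chosen after seeing the data, where the cause was not tested. The share of calls that were higher was 51.3%, and ranged over the settings from 39.9% with no filter to 60% with a mean of at least 5 FPKM, with 44.1% for TPM scaling. FPKM carry no exact depth, which limits the precision of low genes such as KRT20.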
